A study of Mus musculus with 12 samples.

Results

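The regions described here are short stretches of mouse chromatin that carried an ATAC-seq peak in every library of a study of the dentate gyrus. ATAC-seq uses a transposase that inserts sequencing adapters into accessible DNA, and a peak marks a stretch where insertions pile up. Members were chosen by the deposited peak calls themselves: peaks of all 12 libraries on chromosomes 1 to 19 and X were merged where they shared 1 bp or more. A merged region was kept if it had a peak in each of the 12 libraries and was narrower than 2000 bp. Of 170710 merged regions, 9037 were open in this sense in all 12 libraries, and 7353 of them were narrow (4.31% of all merged regions). The other 1684 were 2000 bp or wider and are called broad regions. Presence in every library, width and the strength that lets a peak be called in every library are therefore set by the choice and are given as descriptions.

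Chromatin that is accessible in every sample of a tissue is known to include the promoters of genes that most cells use and the sites bound by the insulator protein CTCF. Elements far from promoters, such as enhancers, vary more between cell types and states. In granule neurons, the main neurons of the dentate gyrus, firing induces transcription factors of the Fos and Jun family within a short time, and these bind enhancers. These are general facts and not results of the data described here.

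Each library came from the microdissected dentate gyrus of 1 C57BL/6 mouse aged 8 weeks, and the labels name 3 groups, E0, E1 and E4, with 4 mice each. The study asked how accessibility changes when neurons are activated. What these names mean is not in the labels. In the published study, as far as it is known here, E0 mice were unstimulated and E1 and E4 mice were taken 1 h and 4 h after an electroconvulsive stimulus; every comparison uses the group names only. No other treatment or allele is named for any group. The tissue is a mixture of cell types, so a change in the number of cells of a type and a change in accessibility per cell cannot be told apart. The lists held 24426 to 104120 peaks on the chromosomes used. E4 replicate 1 had the longest list, and the other 3 E4 lists had 24426 to 34863 peaks. Read counts are not part of the lists, and sequencing depth is therefore unknown. Coordinates are in the mouse build mm9. Regions were not assigned to genes and no sequence was read, since no gene table or genome of that build was used here. For the same reason the labelled tissue was not checked against marker genes.

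Narrow shared regions were wide compared with regions found in fewer libraries. Their median width was 1259 bp, with quartiles of 982 and 1556 bp and a range of 165 to 1999 bp. Regions open in 8 to 11 libraries had a median width of 769 bp, those open in 2 to 7 libraries 444 bp and those open in 1 library 248 bp. A merged region grows with every peak that joins it, so this order follows in part from the merging. Together the members covered 9.31 Mb. The width limit cut through a continuous range. The 2 widest members, chr5:141123513-141125511 and chr6:128748218-128750216, were both 1999 bp wide. The 2 narrowest regions outside the limit, chr1:52653886-52655885 and chr6:147039276-147041275, were 2000 bp wide. The first pair had mean ranks of 35.4 and 79.6 and the second pair 27.7 and 36.6, on the scale of 0 to 100 defined below for regions open in all 12 libraries.

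Most members had a small centre that was covered in every mouse and edges that were not. In 6937 of the 7353 members (94.3%) at least 1 base lay inside a peak of all 12 libraries. This common core had a median length of 251 bp, with quartiles of 187 and 345 bp, and made up a median of 21.6% of the member's width. In 502 members the core came in 2 or more separate pieces. The remaining 416 members had no base covered in all 12 libraries, so that they count as open everywhere only because a wide peak of some library bridged separate peaks of others. Among broad regions 89.4% had a core, with a median length of 428 bp. A total of 4616 members (62.8%) had exactly 1 peak in each of the 12 libraries, and the most peaks a member had in 1 library was 4.

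Peaks of the same members differed in width between libraries. The median width of a member's peaks was 803, 974, 492 and 575 bp in E0 replicates 1 to 4. It was 873, 958, 623 and 561 bp in E1 replicates 1 to 4, and 1137, 486, 350 and 416 bp in E4 replicates 1 to 4. The longest list had the widest peaks and the shortest list the narrowest, and within E0 and within E1 replicates 1 and 2 were above replicates 3 and 4. The group means were 711 ± 219 bp in E0, 754 ± 192 bp in E1 and 597 ± 364 bp in E4 (SD, n = 4). None of the 3 comparisons separated the groups. The difference was 42.8 bp for E1 minus E0 (exact permutation p = 0.714, adjusted p = 0.804 over 9 tests), -114 bp for E4 minus E0 (exact p = 0.629, adjusted p = 0.804) and -157 bp for E4 minus E1 (exact p = 0.457, adjusted p = 0.686). The sign of E1 minus E0 turned without E0 replicate 3, E0 replicate 4 or E1 replicate 2. When 1 library was left out, E4 minus E0 ran from -294 bp (without E4 replicate 1, exact p = 0.114) to -26.1 bp (without E0 replicate 2), and E4 minus E1 from -336 bp (without E4 replicate 1, exact p = 0.0571) to -74.1 bp (without E4 replicate 3).

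The score of a peak is the authors' own deposited value, and it was read here only as a place within its list. The list percentile of a member is the percent of peaks in that library with a lower or tied score, with ties counted in part. Members sat near the top of every list. Their median list percentile was 91.1, 92.9, 84.8 and 87.5 in E0 replicates 1 to 4, and 93.1, 92.8, 90.8 and 89.5 in E1 replicates 1 to 4. In E4 replicates 1 to 4 it was 94.6, 83.6, 76.1 and 81.9. The order largely follows list length: the longest list gave the highest median and the shortest the lowest. Lists of different lengths hold different numbers of weak peaks below the members. A change between groups and a difference in list length cannot be told apart in these percentiles.

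**Figure D1:**
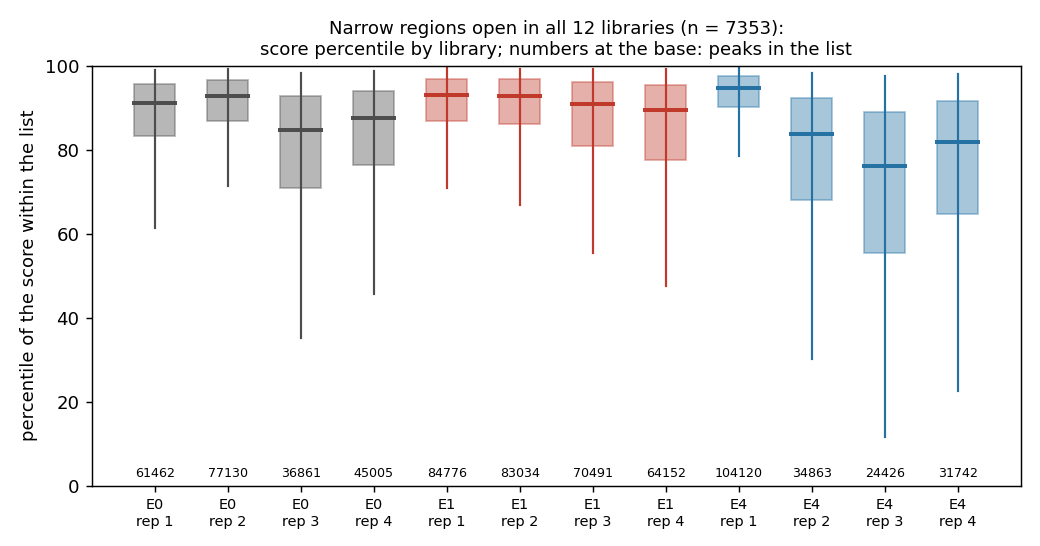
Percentile of the score within the list (y axis, 0 to 100) of the 7353 narrow regions open in all 12 libraries, 1 box per library in the groups E0, E1 and E4 (x axis). Thick lines are medians, boxes run from the lower to the upper quartile, thin lines from the 5th to the 95th percentile, and the number of peaks in each list stands at the base. Medians run from 76.1 in E4 replicate 3, the shortest list, to 94.6 in E4 replicate 1, the longest.

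Strength varied widely among the members. A set of 783 members (10.6%) lay in the top 10% of every list, and 48 of them lay in the top 1% of every list. In all, 4290 members (58.3%) were above the median score of every list. The other 3063 fell below the median in at least 1 list, and 1605 of these did so in 1 list only, which was that of E4 replicate 3 for 725 members. No member was below the median of all 12 lists. At the weak end, 336 members lay in the bottom 5% of at least 1 list. Width and strength went together: the median of the mean list percentile was 74.9 in the 80 members under 500 bp, 77.7 in the 1853 of 500 to under 1000 bp, 86.1 in the 3248 of 1000 to under 1500 bp and 90.6 in the 2172 wider ones. The 783 members at the top of every list had a median width of 1566 bp and a core of 32.2% of their width, against 1219 bp and 19.8% in the other 6570 members.

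The 10 members with the highest mean list percentile were mostly short. Their mean list percentiles ran from 99.96 to 99.996, and the widest was 1305 bp against the median of 1624.5 bp for the 48 members in the top 1% of every list. Those on chr2:98506353-98507657 (1305 bp) and chr12:98299545-98300185 (641 bp) had the same score, 3100, in all 12 libraries. The score of chr9:35112760-35113281 (522 bp) was 3100 in 7 libraries and ran from 2423 in E1 replicate 3 to 3154 in E0 replicate 1. At chr12:3109822-3110169 (348 bp), the scores were 2352, 2363, 2190 and 2507 in E0 replicates 1 to 4, 2337, 2251, 1805 and 1726 in E1, and 2899, 2254, 2379 and 2083 in E4. The value 3100 recurs among the strongest peaks, although higher scores occur. Why it recurs is not known here, so equal scores of 3100 say nothing of steadiness. The other 6 were chr6:9839738-9840318, chr5:60433907-60434511, chr3:5860301-5860910, chr6:103598927-103599420, chr11:108872793-108873558 and chr16:11143838-11144573, between 494 and 766 bp wide. No source used here says whether regions known to collect reads in any sample were removed before peak calling, and the part of such regions in this top group was not tested.

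To set lists of different lengths on 1 footing, the share of members among the 10000 highest scores of each list was taken. Fewer members reached the top 10000 in E1 than in E0, and the libraries of these groups did not overlap. The share was 74.0%, 74.4%, 72.4% and 72.9% in E0 replicates 1 to 4, and 71.3%, 69.5%, 65.8% and 63.0% in E1 replicates 1 to 4. In E4 replicates 1 to 4 it was 73.9%, 71.1%, 71.4% and 70.9%. The E4 libraries overlapped both, with replicate 1 inside the range of E0 and replicates 2 and 4 below the highest E1 library. E1 minus E0 was -5.98 percentage points (67.4 ± 3.71% against 73.4 ± 0.927%, SD, n = 4, exact two-sided permutation p = 0.0286). This is the smallest p that 4 mice against 4 can give, and adjusted over the 9 tests of values per library it was 0.206. Within replicates 1 and 2 the difference was -3.75 points and within replicates 3 and 4 it was -8.21 points. E4 (71.8 ± 1.37%) differed from E0 by -1.56 points (exact p = 0.114, adjusted p = 0.206), and 4.42 points above E1 (exact p = 0.0857, adjusted p = 0.206). None of the 3 differences passed the adjustment. The membership rule also bears on this share. A region without a peak in E0 cannot be a member, but it can take a place among the 10000 highest scores in E1. There were 5579 regions with a peak in all 4 E1 and no E0 library, and 310 with a peak in all 4 E0 and no E1 library. Their part in the difference was not tested, so a lower share does not show that members weakened in E1.

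**Figure D2:**
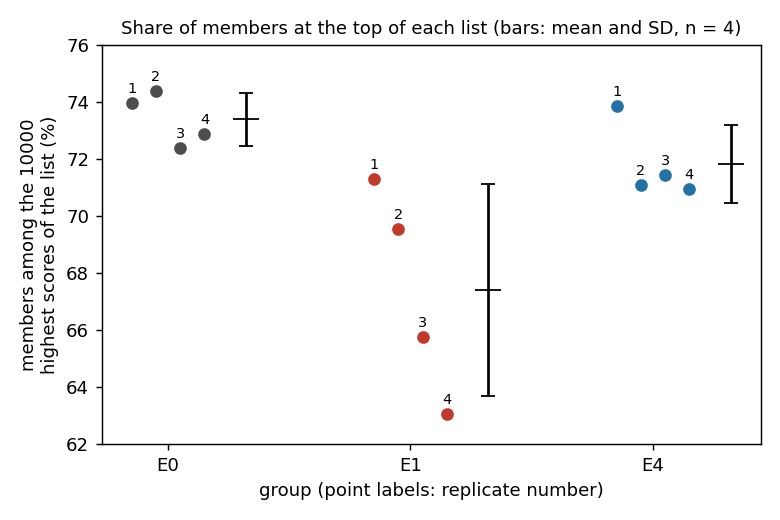
Percent of the 7353 members among the 10000 highest scores of each list (y axis, from 62 to 76), 1 point per library with its replicate number, in groups E0, E1 and E4 (x axis). Black bars are the mean and SD of 4 libraries; all 4 E1 libraries (63.0% to 71.3%) lie under all 4 E0 libraries (72.4% to 74.4%).

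Members kept much of their order from mouse to mouse. Over the 7353 members, the Spearman correlation of the scores of a pair of libraries averaged 0.791 within E0 (6 pairs, 0.742 to 0.884), 0.746 within E1 (0.655 to 0.889) and 0.585 within E4 (0.520 to 0.692). Between groups it averaged 0.647 for E0 with E1, 0.629 for E0 with E4 and 0.632 for E1 with E4. Members are not independent of each other and all pairs share the same regions, so these values carry no test. Within E0 and E1, replicates 1 and 2 were more like each other, and replicates 3 and 4 likewise, than libraries of different pairs: the mean was 0.844 against 0.764 in E0 and 0.848 against 0.694 in E1. Pairs of an E0 and an E1 library with numbers of the same pair averaged 0.696, and with numbers of different pairs 0.598. The labels name no batch. Each main count below is therefore also given within replicates 1 and 2 and within replicates 3 and 4.

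The next comparison asks which members rank differently among the mice of the 3 groups. The rank percentile of a region in a library is its place, from 0 to 100, by its best peak score among the same 9037 regions open in all 12 libraries, broad ones included. A rank tells which shared regions are strong relative to the other shared regions of that mouse, and it cannot show a rise or fall of all of them together. Normal scores of the ranks were compared with limma, with Benjamini-Hochberg adjustment over all 9037 regions. Because a region that lacked a peak in any mouse is not a member, the strongest gains and losses are outside what these counts can hold.

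In E1 against E0, far more members were called higher in rank than were called lower. Of the 7353 members, 317 (4.31%) ranked higher in E1 at an adjusted p under 0.05 by limma, where 3.64% of all regions tested did. A total of 51 members (0.694%) ranked lower in E1, against 0.653% of all regions tested. Members are 7353 of the 9037 regions tested, so nearness to the shares of all regions is partly built in. It does not show that broad regions behaved alike. Of the 329 regions called higher in E1, 317 were members, and of the 59 called lower, 51 were. Without adjustment, 1150 members (15.6%) had p under 0.05, and 14.5% of all regions. The median member moved by -1.01 points on the rank scale and the median region by -1.28. The 317 members rose by a median of 47.9 rank points (12.02 to 85.5), and in 302 of them the 4 E1 libraries lay above all 4 E0 libraries. For the 51 members the median difference was -39.4 points, with 50 showing no overlap of the groups. Counted by lack of overlap alone, 577 members (7.85%) were higher in E1 and 358 (4.87%) lower, against 6.84% and 5.03% of all regions. With the replicate number as a block in all 12 libraries, 364 members were called higher and 81 lower, and 363 of the 368 calls remained. All calls together fell from 368 to 244, 237 and 239 without E0 replicate 1, E0 replicate 2 and E1 replicate 3. The count of lower calls fell to between 18 and 31 when any 1 of the 4 E0 libraries or of E1 replicates 1 to 3 was left out.

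The members that ranked higher in E1 were among the weakest shared regions in E0 and were above the middle in E1. Their median rank percentile was 8.84, 9.75, 12.8 and 11.7 in E0 replicates 1 to 4, and 60.4, 62.4, 72.0 and 74.1 in E1 replicates 1 to 4. In E4 replicates 1 to 4 it was 51.5, 45.2, 49.0 and 37.5. All E1 medians were above all E4 medians, and all E4 medians above all E0 medians. Their peaks were also wider in E1: the median peak width was 477, 576, 327 and 389 bp in E0 replicates 1 to 4 and 755, 835, 629 and 609 bp in E1, while over all members it was 803, 974, 492 and 575 bp and 873, 958, 623 and 561 bp. The members were selected here on the rank of their scores, so these values describe the call and are no further test of it. For 284 of the 317 the E4 mean lay between the E0 and E1 means. It was nearer to the E1 mean in 204 members and nearer to the E0 mean in 113.

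The 51 members that ranked lower in E1 showed the opposite pattern. Their median rank percentile was 53.5, 52.4, 59.2 and 54.7 in E0 replicates 1 to 4. In E1 replicates 1 to 4 it was 9.31, 8.82, 11.1 and 13.0, and in E4 replicates 1 to 4 it was 34.995, 25.003, 39.9 and 26.7. The E4 mean lay between the other means in 47 of the 51, nearer to E1 in 26 and nearer to E0 in 25. E0 libraries enter both the choice of these members and the distance to E0, so these counts describe the members and carry no test.

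**Figure D3:**
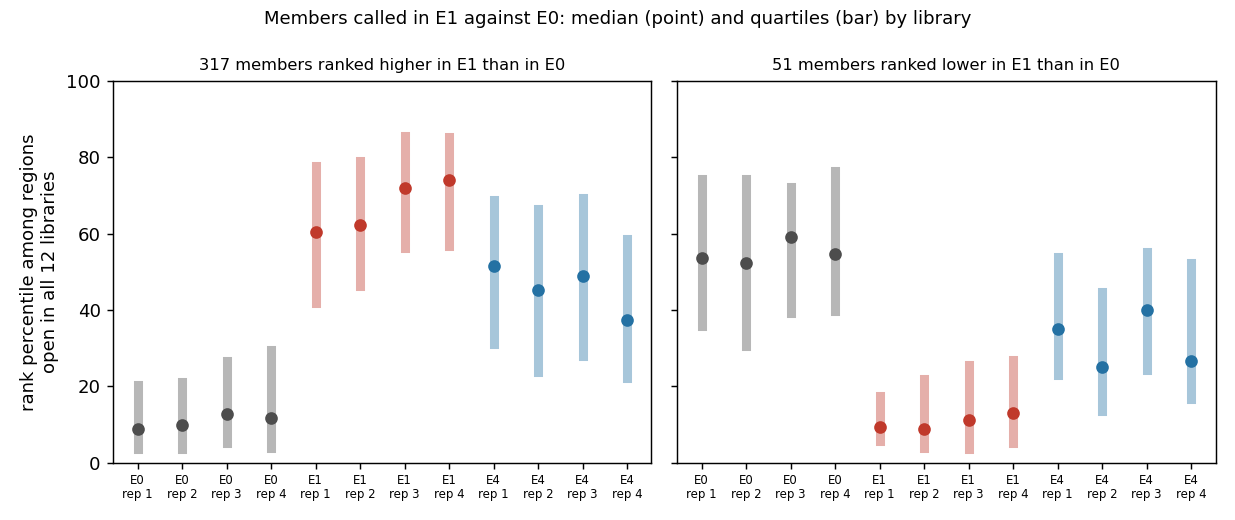
Rank percentile among the 9037 regions open in all 12 libraries (y axis, 0 to 100) of the 317 members ranked higher in E1 than E0 (left) and the 51 ranked lower (right), by library (x axis). Points are medians over members and bars run from the lower to the upper quartile; on the left the E4 medians (37.5 to 51.5) lie between those of E0 (8.84 to 12.8) and E1 (60.4 to 74.1).

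Calls made in some of the mice could be looked up in the others. In replicates 1 and 2 alone, 166 members were called higher in E1 by limma at an adjusted p under 0.05. Among all 9037 regions tested, 169 were. The scores of replicates 3 and 4 had no part in that call, although membership needed a peak in each of them. In these replicates 164 of the 166 were higher in E1, by a median of 56.3 rank points. An unadjusted limma p under 0.05 was found there for 146. Of all members, 47.2% were higher in E1 in those replicates, and the median difference was -0.703 points. Replicates 1 and 2 called 16 members lower, and 21 of all regions tested. In replicates 3 and 4, 13 of the 16 were lower, with a median difference of -29.0 points. An unadjusted limma p under 0.05 was found there for 7. Replicates 3 and 4 alone gave no call for members at an adjusted p under 0.05 by limma, with 856 members at an unadjusted p under 0.05. The split was chosen after seeing the data and members are not independent of each other, so these counts carry no test.

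The members with the largest rank differences between E1 and E0, among those whose groups did not overlap, moved from the bottom of the shared regions to near the top. At chr13:111423369-111424757 (1389 bp), the rank percentile was 0.238, 6.04, 19.6 and 0.902 in E0 replicates 1 to 4, 93.3, 95.3, 90.5 and 89.4 in E1, and 75.9, 45.3, 64.4 and 59.3 in E4. The groups lie apart, with E4 between. The mean rose by 85.5 rank points, or 3.33 ± 0.360 normal-score units (estimate ± SE, limma adjusted p = 9.75e-05). The deposited scores there were 56.8 to 220 in E0 and 535 to 915 in E1. This member had no base covered in all 12 libraries, and its nearest other member lay 4524 bp away. Its peaks covered 517, 977, 561 and 294 bp in E0 and 1272, 1303, 1083 and 1027 bp in E1. Without a common core, the best scores of different libraries can come from different stretches of a member. This limit holds here and at the other named members with no common core. Of the 317 members ranked higher in E1, 293 (92.4%) had a core.

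At chr1:84460512-84461846 (1335 bp), the rank percentile was 17.3, 16.2, 3.21 and 11.6 in E0 and 96.4, 98.4, 95.5 and 91.5 in E1. In E4 it was 84.1, 74.1, 15.8 and 7.15. The E4 mice split here, with replicates 1 and 2 high and replicates 3 and 4 inside the range of E0. The rise in E1 was 83.4 rank points (limma adjusted p = 0.000758), and this member also had no common core. At chr1:32500308-32501369 (1062 bp, core of 232 bp), the values were 6.57, 10.7, 0.0443 and 28.4 in E0, 95.3, 90.1, 85.3 and 94.0 in E1, and 91.9, 51.3, 74.3 and 63.0 in E4. All E4 libraries lay above E0 there, and the rise in E1 was 79.7 points (limma adjusted p = 0.000758).

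A narrower member, chr15:23833654-23834422 (769 bp, core of 199 bp), had rank percentiles of 2.13, 13.3, 4.73 and 29.5 in E0 and 85.1, 84.0, 97.9 and 97.1 in E1. It stayed high in E4, at 67.5, 80.2, 79.5 and 56.3. The rise in E1 was 78.6 points (limma adjusted p = 0.00022). The last of the 5, chr2:141097063-141097989 (927 bp), was at 0.354, 21.1, 16.5 and 6.15 in E0 and at 89.5, 96.6, 87.2 and 83.5 in E1. Its E4 values of 79.9, 10.02, 71.6 and 50.4 spread over most of the scale, and the rise in E1 was 78.1 points (limma adjusted p = 0.00112).

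The largest falls in E1 were smaller than the largest rises. At chr15:59785544-59786636 (1093 bp), the rank percentile was 53.5, 77.2, 65.2 and 69.2 in E0 replicates 1 to 4, 7.82, 4.17, 3.15 and 5.45 in E1, and 15.95, 10.1, 57.5 and 67.0 in E4. The mean fell by 61.1 points in E1 (limma adjusted p = 0.00152), and in E4 replicates 1 and 2 were low while replicates 3 and 4 were in the range of E0. At chr19:53403510-53405103 (1594 bp), it was 53.6, 77.2, 70.9 and 63.2 in E0, 16.7, 16.6, 15.3 and 4.71 in E1, and 34.995, 22.2, 27.9 and 26.7 in E4. Here every E4 library lay between the groups E0 and E1, and the mean in E1 fell by 52.9 points (limma adjusted p = 0.00152).

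At chr1:28270926-28271931 (1006 bp), E1 replicate 3, at 57.8, stood apart from the other E1 libraries, at 17.3, 12.9 and 19.6. The E0 libraries were at 83.6, 88.1, 77.7 and 84.8 and the E4 libraries at 44.4, 55.2, 60.3 and 54.9, and the mean in E1 fell by 56.6 points (limma adjusted p = 0.00236). At chr2:138618334-138619289 (956 bp), the mean rank percentile was 75.7 in E0, 23.9 in E1 and 31.8 in E4 (limma adjusted p = 0.0131 for E1 against E0, and 0.0507 without E1 replicate 4). The member at chr1:47176231-47177699 (1469 bp) was lower in both E1 and E4: it was at 72.0, 71.5, 87.8 and 88.0 in E0, 29.3, 24.3, 24.7 and 41.3 in E1, and 45.9, 50.4, 30.0 and 9.53 in E4. Its limma adjusted p was 0.0128 for E1 against E0 and 0.0325 for E4 against E0, comparisons that share the E0 libraries. The call in E4 was lost on mean scores (0.0747), with lists of equal length (0.0564) and when any 1 E0 library or E4 replicate 3 or 4 was left out (0.0614 to 0.11).

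In E4 against E0 there were fewer calls, and again more higher than lower. In E4, 120 members (1.63%) ranked higher than in E0 at an adjusted p under 0.05 by limma, against 1.37% of all regions tested, and 8 members (0.109%) ranked lower, against 0.111%. Without adjustment 932 members (12.7%) had p under 0.05, and 11.9% of all regions. The 120 rose by a median of 47.3 rank points (15.8 to 77.3), with 115 showing no overlap of the groups, and the 8 differed by a median of -47.1 points, all without overlap. By lack of overlap alone, 301 members (4.09%) were higher in E4 and 185 (2.52%) lower, against 3.56% and 2.52% of all regions. Replicates 1 and 2 alone called 75 members higher, and 79 of all regions tested. In replicates 3 and 4, 71 of the 75 were higher, by a median of 37.2 points, where 50.03% of all members were. Replicates 3 and 4 alone called no member. The count of calls fell from 128 to 59, 55 and 81 without E0 replicate 1, 2 or 4, and to 85 without E4 replicate 2. Lower calls, 8 as reported, ranged from 1 to 38 when 1 library was left out: 38 and 13 without E4 replicates 1 and 3, 1 without E0 replicate 1, 2 or 4, 4 without E1 replicate 3, and 5 without E0 replicate 3, E1 replicate 2 or E4 replicate 2.

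The 120 members were weak in E0 and near the middle or above in both other groups. Their median rank percentile was 6.63, 8.32, 9.93 and 7.59 in E0 replicates 1 to 4, and 60.6, 59.5, 63.8 and 53.3 in E4 replicates 1 to 4. In E1 replicates 1 to 4, whose libraries enter the fit through the shared spread, it was 55.4, 58.6, 68.0 and 65.6. The E1 and E4 contrasts share the E0 libraries, so that their agreement is not a separate result.

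The largest rise in E4 was at chr14:106073789-106075672 (1884 bp, no common core). Its rank percentile was 5.39, 3.72, 1.28 and 7.66 in E0 replicates 1 to 4, 81.6, 89.9, 61.3 and 88.1 in E1, and 76.2, 73.8, 92.3 and 85.1 in E4. All libraries of E1 and E4 lay far above those of E0. The mean in E4 was 77.3 points above E0, or 2.72 ± 0.300 normal-score units (limma adjusted p = 0.000207), and it was 75.7 points above E0 in E1 (limma adjusted p = 0.000131). At chr13:9238340-9239569 (1230 bp), the values were 18.9, 11.8, 15.7 and 2.94 in E0, 91.2, 80.5, 69.8 and 76.3 in E1, and 89.5, 92.9, 74.5 and 81.3 in E4, a rise of 72.2 points in E4 (limma adjusted p = 0.00116). At chr4:94667722-94668797 (1076 bp), they were 2.62, 14.4, 22.7 and 2.04 in E0, 80.3, 73.2, 90.6 and 80.0 in E1, and 81.3, 79.4, 78.0 and 74.2 in E4, a rise of 67.8 points in E4 (limma adjusted p = 0.00177). The E1 and E4 libraries overlapped at both of these members.

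The other 2 of the 5 were chr8:27832661-27833965 (1305 bp) and chr5:63998308-63999686 (1379 bp). Their mean rank percentiles were 10.6 and 6.47 in E0, 74.8 and 78.2 in E1, and 74.2 and 69.2 in E4. The rises in E4 were 63.6 points (limma adjusted p = 0.00501) and 62.7 points (limma adjusted p = 0.00277). At all 5 members with the largest rise in E4, E1 was also above E0, with limma adjusted p from 0.000131 to 0.0015, and E4 against E1 gave limma adjusted p from 0.855 to 0.979.

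**Figure D4:**
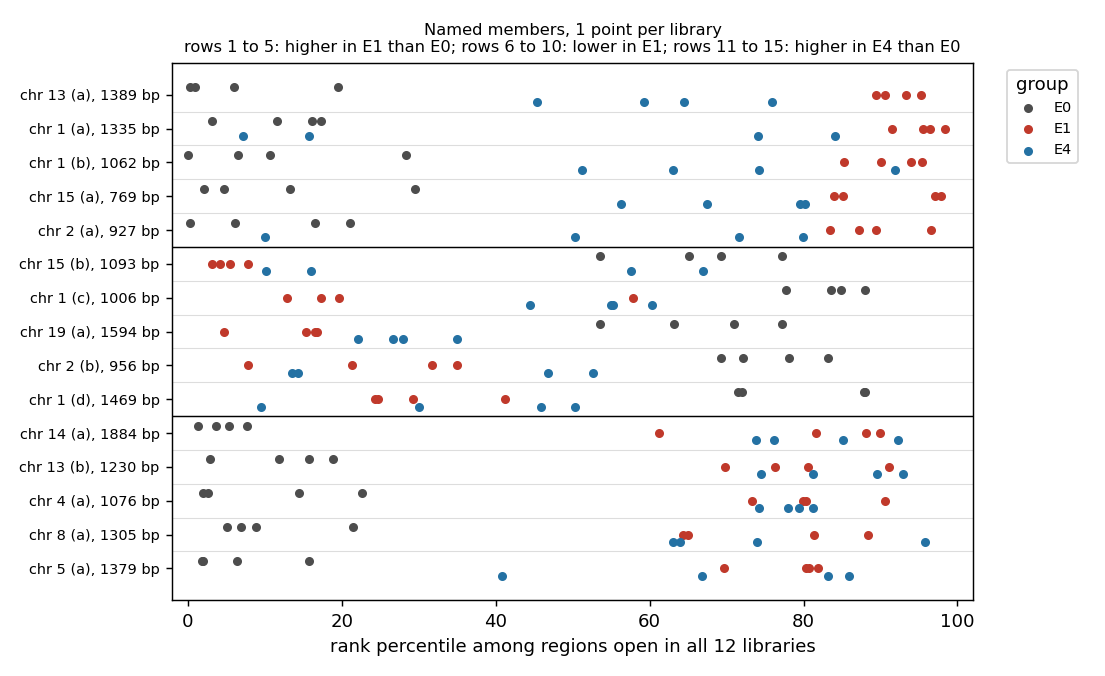
Rank percentile among the 9037 regions open in all 12 libraries (x axis, 0 to 100) of 15 members (y axis, labelled by chromosome, a letter and width), 1 point per library, E0 in grey, E1 in red and E4 in blue. Rows 1 to 5 rank higher in E1 than E0, rows 6 to 10 lower in E1, and rows 11 to 15 higher in E4 than E0; the E1 points of rows 1 to 5 lie at 83.5 or above, while the E4 points of these rows run from 7.15 to 91.9.

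The 4 other members with the largest fall in E4 were not called in E1. At chr8:46712623-46713838 (1216 bp, no common core), the rank percentile was 53.1, 70.1, 76.8 and 76.6 in E0, 42.7, 45.4, 34.3 and 30.6 in E1, and 31.2, 15.8, 12.6 and 0.979 in E4. The mean fell by 54.0 points from E0 to E4 (limma adjusted p = 0.0127), with E1 between. At chr10:113702459-113703579 (1121 bp), E4 was at 23.2, 1.15, 53.3 and 0.481 against a mean of 70.5 in E0 (limma adjusted p = 0.0374). At chr4:17712155-17712983 (829 bp), E4 was at 17.9, 10.04, 6.27 and 38.2 against a mean of 66.6 in E0 (limma adjusted p = 0.0349). At chr1:16191763-16192611 (849 bp), E4 was at 40.4, 45.7, 2.78 and 1.86 against 71.1 in E0 (limma adjusted p = 0.0489). At the last of these, E4 replicates 3 and 4 were near the bottom of the scale. Replicates 1 and 2 were higher than that, but still below all E0 libraries (55.9 to 82.3). The calls at the last 3 of these members depended on the settings and the libraries. At chr10:113702459-113703579 the limma adjusted p was 0.0529 to 0.0569 on rank percentiles, quantile-normalised scores or mean scores, 0.0788 to 0.102 when any 1 E0 library was left out, 0.0509 to 0.0518 without E1 replicate 1, 2 or 3, and 0.126 and 0.104 without E4 replicates 2 and 4. At chr4:17712155-17712983 it was 0.0543 on rank percentiles, 0.051 on mean scores and 0.0586 with lists of equal length, and 0.0504 to 0.12 without E0 replicate 1, 2 or 4 or E4 replicate 1, 2 or 3. At chr1:16191763-16192611 it was 0.067 to 0.0778 on rank percentiles, quantile-normalised scores or mean scores or with list length as a covariate, and 0.0598 to 0.133 when any 1 E0 or E1 library or E4 replicate 3 or 4 was left out. The call at chr8:46712623-46713838 was kept under each of these settings that could be run there.

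E4 and E1 were hardly separated. A single member ranked higher in E4 than in E1 at an adjusted p under 0.05 by limma and none ranked lower, with 0.0111% of all regions tested called in each direction. Without adjustment 802 members (10.9%) had p under 0.05, against 10.3% of all regions. A total of 171 members (2.33%) were higher and 202 (2.75%) lower in E4, with no overlap of the groups, against 2.19% and 2.51% of all regions. The count depended on E4 replicate 1: without it, 42 members were called higher and 42 lower. The 1 member was chr10:119474895-119476078 (1184 bp), with rank percentiles of 9.92, 7.26, 5.21 and 9.47 in E1, 66.2, 65.1, 53.9 and 41.7 in E4, and 16.7, 22.4, 22.6 and 11.3 in E0. It was 48.8 points higher in E4 than in E1 (limma adjusted p = 0.0346) and 38.5 points higher than in E0 (limma adjusted p = 0.0367), and its E1 and E0 libraries gave a limma adjusted p of 0.40. The call of E4 against E1 was lost on leaving out any 1 of 10 of the 12 libraries (limma adjusted p from 0.0517 to 0.181), and kept on leaving out E0 replicate 2 or E4 replicate 1. It was also lost with the mean score of several peaks (0.116), list length as a covariate (0.118) and members only (0.0583).

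Other members held their place in all 12 mice. The median SD of the rank percentile over the 12 libraries was 15.3 points, with 5.48 and 25.3 at the 5th and 95th percentile of members. Within groups the median SD was 10.4 in E0, 11.5 in E1 and 15.5 in E4. Among members with a mean rank from 10 to 90, the steadiest was chr1:179912822-179914341 (1520 bp), with a mean of 89.3 and an SD of 2.22, from 84.4 in E1 replicate 3 to 92.0 in E0 replicate 2. The next were chr13:108948020-108949599, chr4:40894543-40896325, chr6:54942170-54943363 and chr17:56970123-56971078, with SDs of 3.61 to 3.89 and means of 88.8 to 89.9. All 5 lie near the upper bound of that window, where the scale leaves little room to move.

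The members called in E1 were set beside all members by width, place and neighbours. Their share by width was 0 of 80 under 500 bp, 142 of 1853 (7.66%) from 500 to under 1000 bp, 134 of 3248 (4.13%) from 1000 to under 1500 bp and 41 of 2172 (1.89%) above that, for calls higher in E1. The median width of the 317 was 1061 bp, against 1259 bp for all members. Narrower members also ranked lower: the median of the mean rank percentile was 28.8, 30.8, 48.0 and 60.2 in these 4 width classes. Room to rise in rank therefore differed with width, and a part of width itself was not tested. Of the 783 members in the top 10% of every list, 5 (0.639%) were called in E1 against E0, and of the other 6570, 363 (5.53%) were called. A region at the top in E0 cannot rise far in rank, so this contrast is partly built into the scale. By chromosome, the share of members called higher in E1 ran from 1 of 162 (0.617%) on chromosome 19 and 3 of 338 (0.888%) on chromosome 7 to 23 of 308 (7.47%) on chromosome 18 and 46 of 562 (8.19%) on chromosome 1. On chromosome X it was 3 of 235 (1.28%).

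Regions that had a peak in all 4 E1 and no E0 library, and so are no members, were counted around the called members. Such a region was within 10 kb of 37 of the 317 members ranked higher in E1 (11.7%), of 3 of the 51 ranked lower (5.88%) and of 400 of all 7353 members (5.44%). For the 120 members ranked higher in E4 it was 16 (13.3%). Both the calls and these regions come from the same E1 and E0 libraries, so the shares carry no test. The surroundings also differed in density. The median number of regions not open in all 12 libraries within 10 kb was 2 for the 317 and for the 120. It was 1 for the 51 and for all members. The median gap to a region of any kind was 4816 bp for the 317, 4321 bp for the 120, 4169 bp for the 51 and 5669 bp for all members. The part of this density in the shares was not tested. Of the 107 members called higher in E1 that had another member within 50 kb, 6 (5.61%) had one that was also called higher. Of all members 4.31% were called higher in E1, and of all regions tested 3.64%. A member can have several neighbours within 50 kb, so these shares are not of the same kind. For calls higher in E4 than in E0 the count was 0 of 44. Another member lay within 10 kb of 23 of the 317 (7.26%), against 7.81% of all members.

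Members were spread far apart. The gap from a member to the nearest other member had a median of 70959 bp, with quartiles of 29088 and 163733 bp. Another member lay within 10 kb for 574 of 7353 (7.81%, 95% Wilson interval 7.22% to 8.44%, counting error only, and neighbours are counted from both sides), within 50 kb for 39.6% and within 100 kb for 61.2%. For 101 members the nearest other member was more than 1 Mb away. The nearest broad region was further off, at a median of 366252 bp, with 1.39% of members within 10 kb of one. Regions open in 8 to 11 libraries, which are 22734, lay at a median of 26646 bp from the nearest of their own kind. The number of regions sets such a distance, so kinds of different number cannot be ranked by it.

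**Figure D5:**
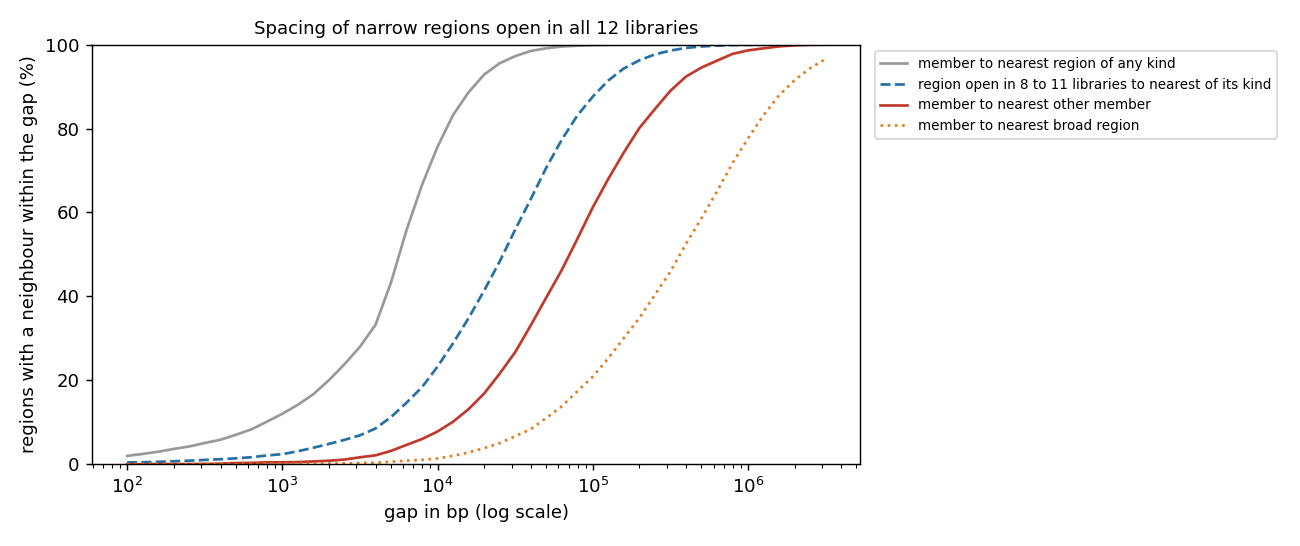
Percent of regions with a neighbour within a given gap (y axis) against the gap in bp (x axis, log scale). Lines show members to the nearest region of any kind, members to the nearest other member, members to the nearest broad region, and regions open in 8 to 11 libraries to the nearest of their kind; at 10000 bp, 75.7% of members have a region of any kind, 7.81% another member and 1.39% a broad region.

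Between members lay many weaker regions. A region of any kind was within 10 kb of 75.7% of members and within 1 kb of 12.02%, with a median gap of 5669 bp, against 3336 bp for all regions to their nearest neighbour. The median member had 1 region that was not open in all 12 libraries within 10 kb (quartiles 0 and 2, highest 9), and 2008 members (27.3%) had none. The nearest region to a member was open in all 12 libraries for 594 members (8.08%). That share was 6.12% for broad regions, 4.99% for regions open in 8 to 11 libraries, 4.19% for those open in 2 to 7 and 4.24% for those open in 1. Members thus had the highest share of a shared region as nearest neighbour among these 5 kinds, although the nearest region was open in a median of 3 libraries. From the other side, the gap to the nearest member had a median of 94739.5 bp for regions open in 8 to 11 libraries, 110781.5 bp for those open in 2 to 7 and 114828 bp for those open in 1.

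A few members stood in runs with gaps of up to 10 kb. There were 6779 single members, 259 runs of 2, 14 of 3, 2 of 4 and 1 of 6. The run of 6 lay on chromosome 12 from 55810509 to 55840391, with members 1147 to 1795 bp wide. Their mean rank percentiles were, in order along the chromosome, 69.6, 16.95, 59.1, 69.97, 18.4 and 60.1, so that 2 weak members stood among 4 stronger ones. The second member of the run had rank percentiles of 18.9, 18.99, 7.26 and 6.11 in E0, 7.11, 5.72, 5.12 and 8.15 in E1, and 3.39, 44.1, 46.8 and 31.8 in E4.

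Members per window of 1 Mb were uneven. Of 2571 windows that held any region, 545 (21.2%) held no member, the median was 2 and the mean 2.86 with a variance of 7.60. In 68 windows there were 10 or more members. The window from 21000001 to 22000000 on chromosome 13 held 25 members and 7 broad regions among 72 regions of any kind. The next were the window on chromosome 17 from 56000001, with 20 members among 139 regions, and windows on chromosome 10 from 79000001 and chromosome 13 from 67000001, with 18 members each among 143 and 50 regions. The 2 windows on chromosome 13 held the fewest regions of any kind among these 4. Per Mb, members ran from 1.44 on chromosome X and 2.12 on chromosome 16 to 3.51 on chromosome 18 and 3.55 on chromosome 11.

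The closeness of other peaks to members was compared at 10 kb and at 50 kb, and no difference passed the adjustment. The share of such peaks within 10 kb of a member was 5.87%, 6.12%, 6.77% and 6.33% in E0 replicates 1 to 4, and 6.34%, 6.36%, 6.18% and 6.18% in E1 replicates 1 to 4. In E4 replicates 1 to 4 it was 6.35%, 6.74%, 6.79% and 7.26%. At 10 kb the groups overlapped in all 3 comparisons. E1 minus E0 was -0.0084 points (6.26 ± 0.0952% against 6.27 ± 0.382%, SD, n = 4, exact permutation p = 1.0), with 0.353 points within replicates 1 and 2 and -0.369 within replicates 3 and 4. E4, at 6.79 ± 0.373%, was 0.514 points above E0 (exact p = 0.114, adjusted p = 0.206) and 0.522 points above E1 (exact p = 0.0571, adjusted p = 0.206). At 50 kb the shares were 30.6%, 30.7%, 32.2% and 30.7% in E0 replicates 1 to 4, 30.5%, 30.5%, 30.1% and 29.6% in E1, and 30.4%, 32.4%, 31.2% and 34.1% in E4. All E1 libraries lay under all E0 libraries there, with a difference of -0.882 points (exact p = 0.0286, the smallest possible, adjusted p = 0.129). E4 differed by 0.966 points from E0 (exact p = 0.314, adjusted p = 0.471) and by 1.85 points from E1 (exact p = 0.0857, adjusted p = 0.154), and its libraries overlapped both groups. Counted over regions, 6.28% of the 161673 regions not open in all 12 libraries lay within 10 kb of a member. It was 7.24% of the 5579 regions with a peak in all 4 E1 and no E0 library, and 31 of the 310 with a peak in all 4 E0 and no E1 library. Other regions found in 4 of these 8 libraries gave 6.06%. For E4 against E0 the same shares were 10.8% (25 of 232), 7.66% (19 of 248) and 6.26%. These regions are not independent of each other, so the shares are descriptions.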

How the data were processed

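Peak lists of 12 libraries were used as deposited. The submitters' processing notes name Bowtie2 as a tool and mm9 as the build. Peak names carry the prefix of the caller MACS, per the file contents; no source used here gives its version, control, threshold or treatment of duplicates. The score of each peak is the authors' deposited value, with 50 as the lowest and a scale that is not given, so it was used only to rank peaks within a library. Caller thresholds and depth, both unknown here, move list length, peak width and so membership.

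Members and all lists were chosen with earlier results of these data known. Peaks on chromosome Y (9 to 43 per library) were left out. Merging was checked with bedtools 2.31.1, with an equal count of 170710 regions. Ranks of the best score per region were turned into normal scores and fitted in limma 3.58.1 (R 4.3.3) over all 12 libraries with 1 shared spread, with Benjamini-Hochberg adjustment over 9037 regions and a threshold of 0.05. Values per library were compared by exact two-sided permutation over 70 assignments (scipy 1.17.1). Regions were named by a rule: the 10 members highest in the lists, the 5 largest changes in each direction and comparison among calls without overlap, the 5 with the smallest SD, the regions at the width limit and the longest run.

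Replicate numbers are shared by the groups. Deviations from the group means of E0 and E1 libraries with the same number correlated at 0.267, 0.398, 0.239 and 0.282. The number was therefore also used as a block, in a fit of all 12 libraries that includes E4. Libraries with the other number of the same set (1 with 2, 3 with 4) correlated about as much, at 0.222 to 0.358, and the labels give no source for the pairing. Alternatives changed the score scale, the merging, the list length, the width limit and the libraries used.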

Additional observations from a re-analysis of the deposited data

Results flagged for a closer look

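A total of 5 values, 1 of them in each of 5 groups of 4 libraries, stood apart from the other 3 by Dixon's ratio. In all, 78 groups were tested, and chance flags about 1 in 20 groups, or about 3.9 of them.

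E4 replicate 1 had 73.9% of members among its 10000 highest scores, where the next E4 library had 71.4%. The median score of members in the same library was 783.75, where the next E4 library had 175.5; this library also has the longest list.

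In E1, the member at chr1:28270926-28271931 had a rank percentile of 57.8 in replicate 3, where the next library had 19.6. The member at chr19:53403510-53405103 had 4.71 in replicate 4, where the next library had 15.3. The member at chr5:63998308-63999686 had 69.7 in replicate 2, where the next library had 80.3.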

How the results depend on the processing

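The number of members was 1933 with a width limit of 1000 bp and 139 when a peak had to cover 50% of the region, and leaving out 1 library gave 7398 to 10287, the highest without E4 replicate 3. The share of members within 10 kb of another was 2.28% and 8.61% with limits of 1000 and 3000 bp and 5.65% with lists of equal length (7.81% as reported).

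For E1 against E0, 368 members were called as reported, 185 with lists of equal length, 182 in replicates 1 and 2 alone and 0 in replicates 3 and 4 alone (856 at an unadjusted p under 0.05 by limma); leaving out 1 library gave 237 to 435, with 244, 237 and 239 without E0 replicate 1, E0 replicate 2 and E1 replicate 3. For E4 against E0, 128 were called as reported, 45 with lists of equal length, 211 with a term for replicates 1 and 2 against 3 and 4, 76 and 0 in these sets alone (0 with 938 at an unadjusted p under 0.05 by limma), and 55 to 152 without 1 library. For E4 against E1, 1 was called as reported, 10 on rank percentiles, 25 with that term, and 0 with the mean of several scores, list length as a covariate, lists of equal length, members only, or either set alone (unadjusted limma counts 546 to 1070). Leaving out 1 library gave 0 to 84, with 84 without E4 replicate 1. Of the calls as reported, 340, 117 and 1 in the 3 comparisons were at members with a core. That term, the sets alone and this count were chosen after seeing the data. The shorter lists hold 5261 members, and of the 368 calls 158 were found there and 157 called; the cause of the other shifts was not tested.

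With the replicate block, E1 against E0 gave 445 calls, E4 against E0 gave 192 (164 higher and 28 lower), which kept all 128, and E4 against E1 gave 6. The check of pairing was mixed for E4 (0.152, 0.0187, 0.171 and 0.108 with E0, 0.229, 0.0573, 0.137 and 0.0881 with E1), short of the 0.1 asked of every pair, and the block changed the call of no named member. For E1 minus E0, leaving out 1 library moved the median peak width between -30.2 and 130 bp (-30.2, -2.58 and -25.3 without E0 replicate 3, E0 replicate 4 and E1 replicate 2), and the share of other peaks within 10 kb between -0.143 and 0.158 points (0.158, 0.0114, 0.0182 and 0.0197 without E0 replicate 3, E0 replicate 4, E1 replicate 3 and E1 replicate 4). Named members kept their direction in all 467 alternatives run, with 88 no longer under the threshold, 21 of these in replicates 3 and 4 alone.

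Unknown depth limits all values: the lack of a peak is a missing call and no proof of closed chromatin, and ranks among shared regions cannot show a change common to all of them.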
